A study of Mus musculus with 16 samples.

Results

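The cGAS-STING pathway detects DNA in the cytosol. The sensor cGAS binds double-stranded DNA and makes the messenger cGAMP, which activates the adaptor STING on the endoplasmic reticulum; the kinases TBK1 and IKK epsilon then phosphorylate the transcription factor IRF3, which induces type I interferons and genes such as Cxcl10 and Ifit1. Nucleases and phosphohydrolases keep the pathway low by removing its DNA trigger or its messenger, and in tumours the pathway is known for linking DNA damage to immune signalling. Its core is described here through 10 genes of known role, chosen by name: Cgas, Sting1, Tbk1, Ikbke, Irf3, Trex1, Enpp1, Samhd1, Zbp1 and Nlrc3. All 10 were found among the 18635 genes that the count tables list, and all 10 passed the filter on low counts in both tumour lines.

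RNA sequencing was available for 16 mouse samples, which the labels describe as tumours grown from lines implanted into syngeneic mice. ID8 is an ovarian surface epithelial cancer line, with 3 tumours labelled Trp53bp1 KO and 3 labelled WT. KPC is a pancreatic cancer line, with 5 tumours labelled Trp53bp1 KO and 5 labelled WT. Trp53bp1 encodes 53BP1, a DNA repair factor that protects broken DNA ends from resection, and the study asked how its loss bears on the immune response to a tumour. No drug or other agent was given to any group, and the labels give neither the age or strain of the mice, nor the number of knockout clones, nor which exons were removed. Only the implanted cells carry the knockout, so host cells in a tumour still have the gene.

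Total counts ranged from 17902867 to 19727536 per library, and levels are given in CPM, counts relative to library sizes that were scaled across all 16 libraries. Trp53bp1 averaged 18.9 ± 0.502 CPM in ID8 KO and 47.4 ± 2.78 CPM in ID8 WT tumours (SD, n = 3 each), which is 39.8% of the WT level, with no overlap of the groups (exact two-sided permutation p = 0.1, the smallest that 3 against 3 allows). It averaged 33.8 ± 3.79 CPM in KPC KO and 50.3 ± 2.93 CPM in KPC WT tumours (SD, n = 5 each), which is 67.2% of the WT level, again without overlap (exact two-sided permutation p = 0.00794, the smallest that 5 against 5 allows). Several host markers in the ID8 libraries went against their label as tumours in syngeneic mice. The leukocyte genes Ptprc and Laptm5, the macrophage genes Adgre1, C1qa, C1qb, C1qc and Fcgr1 and the endothelial gene Cdh5 had 0 counts in all 6. Some other listed markers were counted in ID8. Per library, the macrophage gene Cd68 had 70 to 233 counts and the endothelial gene Pecam1 17 to 51. The dendritic cell genes Ccr7 and Zbtb46 had 608 to 840 and 414 to 513, while Flt3, Xcr1, Clec9a, Cd209a and Siglech of the same list had 0 in all 6. The fibroblast gene Col3a1 had 799 to 6797, while Col1a2 had 0 to 7 and Lum 0 to 2. Of 6 fibroblast markers, 3 averaged over 1 CPM in ID8 KO and 3 in ID8 WT. The T cell genes Cd3e, Cd3d, Cd3g, Cd4 and Cd8a had 0 in all 6. The labels' protocol speaks of RNA from cells. Of 5 epithelial markers (Epcam, Krt8, Krt18, Krt19, Cdh1), the keratin genes Krt8, Krt18 and Krt19 were high in both lines. In ID8, Epcam had only 12 to 67 counts per library and Cdh1 only 9 to 21. The summed level of the 5 was 2855 to 2943 CPM in ID8 KO and 3699 to 4024 CPM in ID8 WT. In KPC it was 7854 to 9654 CPM in KO and 4685 to 5831 CPM in WT. Between replicates, the fits estimated a biological coefficient of variation of 5.08% for the ID8 and 25.1% for the KPC tumours. All p-values measure the spread between these libraries, which the labels call biological replicates without saying how separate they were.

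The promoter windows of Cgas and Enpp1, the genes of the enzymes that make and degrade cGAMP, are shown because these 2 held the letters of an NF-kB motif and Enpp1 fell in both lines. Sequences are the 250 bases before the gene start on the minus strand from RefSeq (GRCm38.p6, while the counts were made on GRCm39). They run 5′ to 3′, and capitals mark the kB letters (GGG, any 3 bases, then TTCC; on the other strand GGAA, any 3 bases, then CCC), and in Enpp1 also the GC box GGGCGG.
Cgas, chr9:78443238-78443487: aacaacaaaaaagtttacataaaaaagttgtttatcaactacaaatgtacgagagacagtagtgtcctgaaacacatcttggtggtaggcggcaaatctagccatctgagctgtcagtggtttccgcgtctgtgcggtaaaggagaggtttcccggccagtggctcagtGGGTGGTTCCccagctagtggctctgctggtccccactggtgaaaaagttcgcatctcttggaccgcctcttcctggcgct
Enpp1, chr10:24712160-24712409: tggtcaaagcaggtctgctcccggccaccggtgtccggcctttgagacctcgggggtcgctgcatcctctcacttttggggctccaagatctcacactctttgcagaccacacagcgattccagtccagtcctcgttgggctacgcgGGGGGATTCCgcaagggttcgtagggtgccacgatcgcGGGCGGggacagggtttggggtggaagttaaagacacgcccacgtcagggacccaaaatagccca
RefSeq windows were matched for 8 of the 10 genes, with 9 windows in all because Trex1 has a pair of starts. Sting1 and Zbp1 had no matched window, so their motifs were not examined. The kB letters lay 81 bases before the Cgas start and 103 bases before the Enpp1 start, and they occur on either strand in 4.65% of 32851 mouse windows of this length. No window of the 8 genes held the interferon-stimulated response element (GAAA, any 2 bases, GAAA; 2.98% of all windows), and the window of Samhd1 alone held the interferon-gamma motif (TTC, any 3 bases, GAA; 7.02% of all windows). The GC box, present in 32.7% of all windows, was found in Enpp1, Irf3, Samhd1, Tbk1 and 1 of the Trex1 windows. No match overlapped another. These matches describe letters, and no binding was measured.

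Levels differed widely among the core genes. Divided by the length of the longest protein-coding transcript (GENCODE M21 lengths), Sting1 had the highest level in all 4 groups, at 43.8 CPM per kb in ID8 KO, 45.9 CPM per kb in ID8 WT, 71.2 CPM per kb in KPC KO and 52.4 CPM per kb in KPC WT. Samhd1 came next in all 4 groups. Nlrc3 was lowest in ID8, at 0.0941 CPM per kb in KO and 0.22 CPM per kb in WT, and Cgas was lowest in KPC, at 1.16 CPM per kb in KO and 0.831 CPM per kb in WT.

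**Figure D1:**
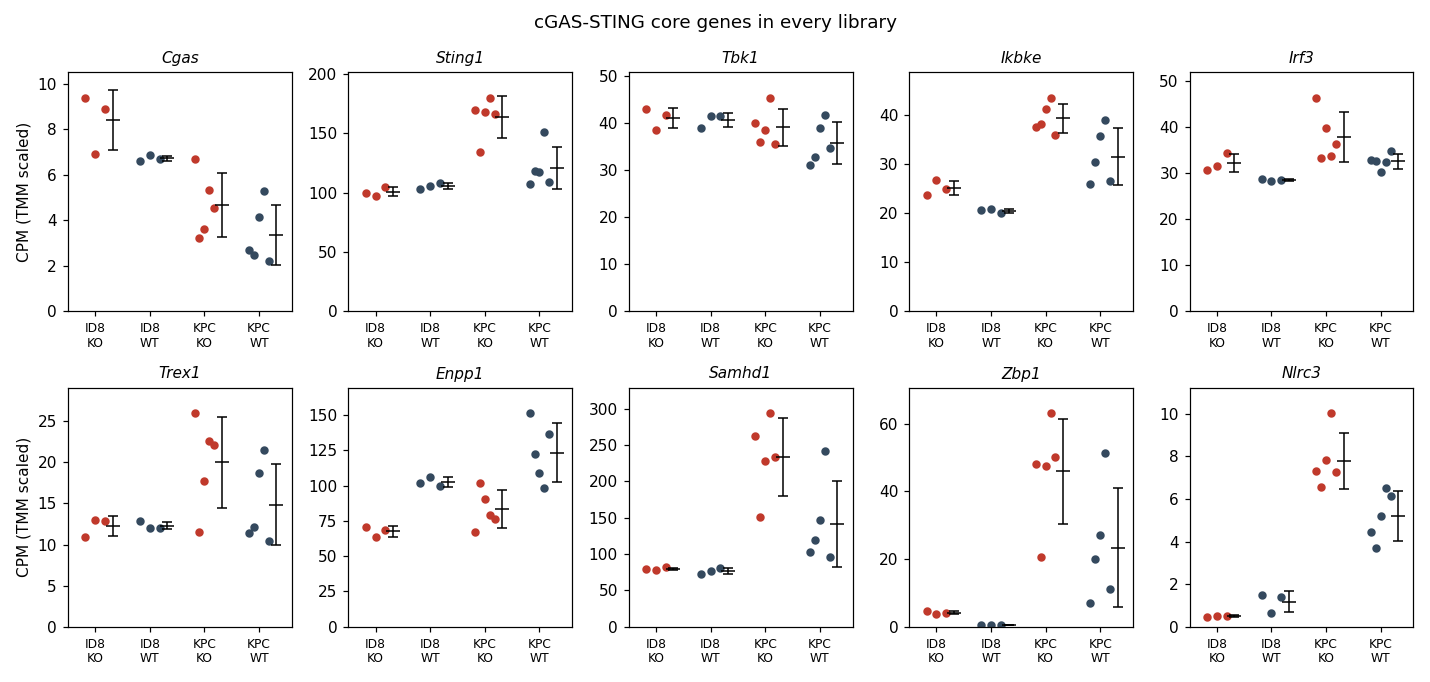
Level of each of the 10 core genes in every library, in CPM on a linear axis that starts at 0 and has its own scale in each panel. Points are libraries (red KO, dark WT) and the bars beside them show mean and SD; Zbp1 and Enpp1 show a clear gap between ID8 KO and ID8 WT, and the KPC groups overlap for every gene except Nlrc3.

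In ID8, the sensor gene Zbp1 rose most in the knockout, the kinase gene Ikbke, the sensor gene Cgas and the transcription factor gene Irf3 rose slightly, and the inhibitor genes Enpp1 and Nlrc3 fell. Thus 4 of the 10 genes passed the test as higher and 2 as lower (edgeR quasi-likelihood test, Benjamini-Hochberg adjusted p under 0.05), while Sting1, Tbk1, Trex1 and Samhd1 did not pass. In this line 50.8% of the 11933 genes tested passed, 25.4% as higher and 25.5% as lower, so 6 of 10 is close to the share among all genes. The median log2 fold change of the 10 was 0.04, against 0.01 over all genes tested.

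Cgas, which makes cGAMP, had 9.39, 6.94 and 8.91 CPM in the ID8 KO libraries, against 6.63, 6.86 and 6.71 CPM in ID8 WT. The lowest KO library lay just above the highest WT library, so the groups did not overlap (as for 57.9% of all genes tested, 28.7% with KO higher and 29.3% with KO lower). The log2 fold change was 0.33 (SE 0.119, adjusted p = 0.0318), and with a library left out the call held in 1 of 6 fits (adjusted p 0.00428 to 0.144).

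Sting1, the cGAMP receptor, averaged 100.7 ± 3.76 CPM in ID8 KO and 105.6 ± 2.56 CPM in ID8 WT (SD, n = 3 each), with overlapping groups. Its log2 fold change of −0.06 did not pass (adjusted p = 0.289), and the 95% interval ran from −0.17 to 0.04. Tbk1, the kinase that STING recruits, averaged 41.0 ± 2.21 CPM in KO and 40.6 ± 1.42 CPM in WT (log2 fold change 0.02, 95% interval −0.11 to 0.15, adjusted p = 0.810). For both genes the interval excludes a change of the size seen for Enpp1.

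Ikbke, which encodes the related kinase IKK epsilon, had 23.8, 26.8 and 24.98 CPM in ID8 KO, against 20.7, 20.9 and 20.1 CPM in ID8 WT. Every KO library was above every WT library, and the gene rose by a log2 fold change of 0.30 (SE 0.0697, adjusted p = 0.00202), a call lost in a joint fit of the 4 groups (adjusted p = 0.153). Irf3, the factor both kinases phosphorylate, had 30.7, 31.6 and 34.5 CPM in KO, against 28.8, 28.3 and 28.5 CPM in WT. Its groups did not overlap, and it rose by 0.18 on the log2 scale (SE 0.0641, adjusted p = 0.0272), a call that held in 2 of 6 fits with a library left out (adjusted p 0.0184 to 0.139). With the DESeq2 test Cgas and Irf3 each had an adjusted p of 0.0885 in ID8, and with the joint fit 0.562 for Cgas and 0.292 for Irf3.

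Among the genes that restrain the pathway, Enpp1 encodes the phosphohydrolase that degrades extracellular cGAMP. It had 70.5, 63.4 and 68.7 CPM in ID8 KO, against 101.5, 106.1 and 99.7 CPM in ID8 WT. All KO libraries were far below all WT libraries, and the gene fell by 0.60 on the log2 scale (SE 0.054, adjusted p = 1.36e-07). Trex1, the exonuclease that digests cytosolic DNA, averaged 12.3 ± 1.17 CPM in KO and 12.3 ± 0.457 CPM in WT, with a 95% interval of the log2 fold change from −0.20 to 0.19 (adjusted p = 0.994). Samhd1, which hydrolyses deoxynucleotides and helps process stalled replication forks, averaged 80.1 ± 1.43 CPM in KO and 76.6 ± 4.08 CPM in WT (log2 fold change 0.07, 95% interval −0.04 to 0.18, adjusted p = 0.293).

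Nlrc3, an NLR protein that binds STING and limits its activation, was near the limit of counting in ID8. It had 0.472, 0.526 and 0.527 CPM in KO, against 1.51, 0.648 and 1.41 CPM in WT, which are 9 to 10 and 12 to 28 counts per library. The groups did not overlap although a WT library lay close to the KO libraries, and the gene fell by 1.21 on the log2 scale (SE 0.345, adjusted p = 0.00785). The deposited values of Nlrc3 were not whole in 15 of 16 libraries, so the counting divided some reads between Nlrc3 and other features and its level is uncertain.

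Zbp1, a sensor of Z-form nucleic acids that triggers cell death through RIPK3, had 4.67, 3.78 and 4.16 CPM in ID8 KO, against 0.647, 0.432 and 0.541 CPM in ID8 WT. The WT libraries held 8 to 12 counts and the KO libraries 72 to 89 counts, with a wide gap between the groups. Its log2 fold change was 2.95 (SE 0.219, adjusted p = 1.25e-08), the largest among the 10 genes in ID8. Zbp1 passed the count filter through the KO group, where it was high, and Nlrc3 through the WT group.

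**Figure D2:**
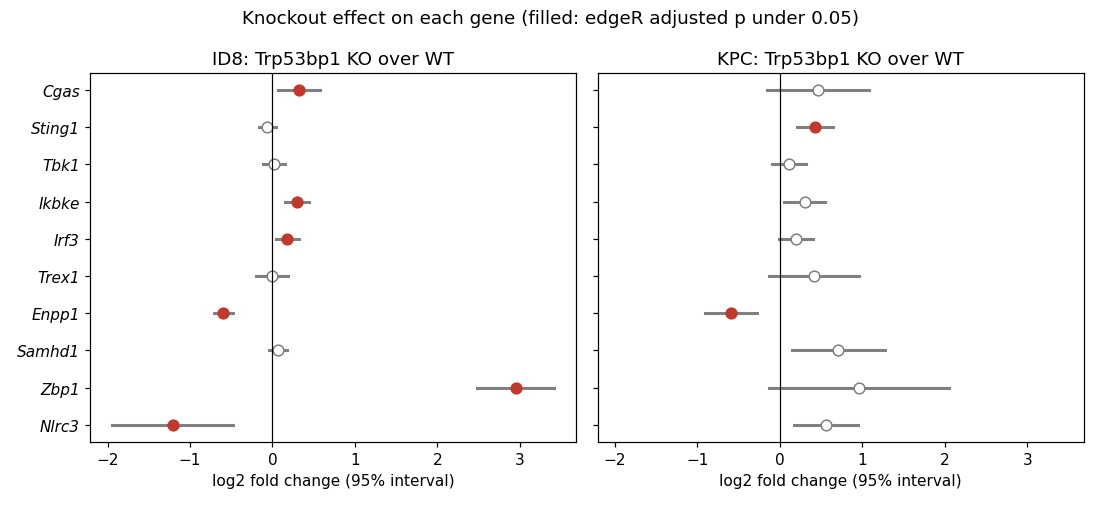
Log2 fold change of KO over WT for each core gene in ID8 (left) and KPC (right) on the same axis, with lines for the 95% interval and filled points for genes past an edgeR adjusted p of 0.05. Enpp1 lies left of 0 by about the same amount in both lines (−0.60 and −0.59), and 9 of 10 genes lie right of 0 in KPC.

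In KPC, the adaptor gene Sting1 rose and the inhibitor gene Enpp1 fell in the knockout. These were the only 2 of the 10 genes past the test (1 higher and 1 lower), where 13.7% of the 14283 genes tested passed, 6.67% as higher and 7.01% as lower. The log2 fold change was positive for 9 of the 10 genes, with a median of 0.42, against −0.01 over all genes tested. In bulk tumour RNA, more cells of a type that expresses a gene and more RNA of that gene per cell cannot be told apart.

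Sting1 had 170.1, 134.1, 168.0, 180.0 and 166.5 CPM in the 5 KPC KO libraries, against 107.1, 118.6, 117.1, 151.0 and 108.9 CPM in KPC WT. The groups overlapped in the lowest KO library and the highest WT library, and the other libraries were apart. The gene rose by a log2 fold change of 0.42 (SE 0.101, adjusted p = 0.0238). The call was lost in 7 of 10 fits with a library left out (KPC WT replicates 1, 2 and 5 and KO replicates 1, 3, 4 and 5, with an adjusted p of up to 0.0607), while the log2 fold change stayed between 0.38 and 0.50.

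Enpp1 had 67.5, 102.1, 90.6, 79.4 and 76.5 CPM in KPC KO, against 151.1, 122.2, 109.0, 98.0 and 136.4 CPM in KPC WT. Here too the groups met in a single library of each, KO replicate 2 and WT replicate 4, the same libraries that were extreme for Sting1. The gene fell by 0.59 on the log2 scale (SE 0.143, adjusted p = 0.0251), a call lost without WT replicate 1 or 5 or KO replicate 4 or 5 (adjusted p up to 0.0623) and with the replicate number as a block (adjusted p = 0.0539).

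Nlrc3 had 7.31, 6.59, 7.83, 10.03 and 7.25 CPM in KPC KO, against 4.45, 3.72, 5.21, 6.54 and 6.13 CPM in KPC WT. Every KO library was above every WT library, which held for 11.8% of all genes tested, 5.75% with KO higher and 6.04% with KO lower. Its log2 fold change of 0.56 (SE 0.176) did not pass (adjusted p = 0.0562). It was past the threshold with DESeq2, limma-voom or a replicate block (adjusted p = 0.0435 with the block), and without WT replicate 4. Among the alternative fits that left out no library, the change ranged from 0.34 to 0.58, with an adjusted p of up to 0.532.

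Samhd1 had 261.7, 150.4, 227.4, 293.5 and 233.6 CPM in KPC KO, against 102.5, 119.9, 146.6, 241.4 and 95.8 CPM in KPC WT. WT replicate 4 lay inside the KO range and KO replicate 2 beside the upper WT libraries. The log2 fold change was 0.71 (95% interval 0.15 to 1.27) and did not pass (adjusted p = 0.0859), though it passed with DESeq2, a joint fit of the 4 groups, a replicate block (adjusted p = 0.0447) and without WT replicate 4. Among the alternative fits that left out no library, the change ranged from −0.081 to 0.76, with an adjusted p of up to 0.847. Zbp1 had 48.2, 20.7, 47.6, 63.1 and 50.2 CPM in KO, against 7.09, 19.9, 27.2, 51.5 and 11.3 CPM in WT, and the same pair of libraries made the groups overlap. Its log2 fold change of 0.96 had a 95% interval of −0.13 to 2.05 (adjusted p = 0.202), and 1.45 without WT replicate 4 (adjusted p = 0.0417).

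The remaining genes were less far apart in KPC. Cgas had 6.71, 3.22, 3.64, 5.34 and 4.52 CPM in KO, against 2.68, 2.46, 4.16, 5.29 and 2.22 CPM in WT, with overlapping groups and a 95% interval of the log2 fold change of −0.16 to 1.08 (adjusted p = 0.274). Trex1 averaged 19.99 ± 5.56 CPM in KO and 14.8 ± 4.93 CPM in WT (SD, n = 5 each, log2 fold change 0.41, 95% interval −0.14 to 0.96, adjusted p = 0.271). Its counts are uncertain in both lines, since the RefSeq annotation holds a read-through gene, Atrip-trex1, over its span, and Ikbke likewise overlaps 2 predicted genes. The deposited values of Trex1 and Ikbke were whole in all 16 libraries, unlike those of Nlrc3.

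Of the kinases, Ikbke averaged 39.4 ± 3.01 CPM in KPC KO and 31.6 ± 5.78 CPM in KPC WT, with overlapping groups. Its log2 fold change was 0.30 (95% interval 0.05 to 0.55, adjusted p = 0.0980), beside 0.30 in ID8, where the SE was 0.0697 against 0.114 in KPC. The KPC change passed with a replicate block (adjusted p = 0.0456), the joint fit and without WT replicate 4. Among the alternative fits that left out no library, the KPC change ranged from 0.04 to 0.32, with an adjusted p of up to 0.909. Tbk1 averaged 39.1 ± 3.97 CPM in KO and 35.8 ± 4.45 CPM in WT (log2 fold change 0.11, 95% interval −0.10 to 0.31, adjusted p = 0.452). Irf3 averaged 37.9 ± 5.40 CPM in KO and 32.6 ± 1.59 CPM in WT, also with overlapping groups (log2 fold change 0.19, adjusted p = 0.169).

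Many extremes of the core genes in KPC fell on 2 libraries, which were also extreme in leukocyte markers within their group. WT replicate 4 was the highest WT library for 8 of the 10 genes and the lowest for Enpp1, and KO replicate 2 was the lowest KO library for 7 and the highest for Enpp1. The summed level of 5 leukocyte markers (Ptprc, Cd52, Laptm5, Coro1a, Cd53) was 615 to 1312 CPM in KPC KO and 277 to 783 CPM in KPC WT. Of these markers 5 of 5 had a positive log2 fold change and Cd52 passed the test. The leukocyte score, the mean log2(CPM + 1) of the list, was 6.85 to 7.94 in KO, lowest in replicate 2, and 5.63 to 7.14 in WT, highest in replicate 4. The other ends of the score matched fewer genes: KO replicate 1, with the highest KO score, was highest for 3 of the 10 genes (Cgas, Irf3, Trex1) and lowest for Enpp1, and WT replicate 5, with the lowest WT score, was lowest for 3 (Cgas, Trex1, Samhd1) and highest for Irf3.

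Several other marker lists had mostly positive log2 fold changes in KPC, and the muscle list had negative ones. Dendritic cell markers summed to 166 to 330 CPM in KO and 41.2 to 155 CPM in WT (4 of 8 passed as higher), T and NK cell markers to 74.1 to 137 CPM in KO and 12.5 to 107 CPM in WT (1 of 9 passed), and macrophage markers to 3100 to 5198 CPM in KO and 1933 to 4198 CPM in WT (0 of 10 passed, 7 at an unadjusted p under 0.05). Epithelial markers also rose (4 of 5 passed). Skeletal muscle markers summed to 18.7 to 5751 CPM in KO and 541 to 28617 CPM in WT, with a negative log2 fold change for 8 of 8 (median −2.05), of which 0 passed and 0 had an unadjusted p under 0.05.

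With the leukocyte score in the fit, the KPC log2 fold change was 0.15 for Sting1 (SE 0.108, adjusted p = 0.513) and −0.11 for Enpp1 (SE 0.108, adjusted p = 0.660), and 0 of the 10 genes passed among 376 genes that did. With a muscle score in the fit it was 0.39 for Sting1 (SE 0.128, adjusted p = 0.123) and −0.57 for Enpp1 (SE 0.178, adjusted p = 0.113), and again 0 of the 10 passed, among 418 genes. The part of these cell types in the KPC differences was not tested. In ID8 the summed leukocyte level was at most 0.368 CPM, so the ID8 differences were measured with these markers near 0.

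**Figure D3:**
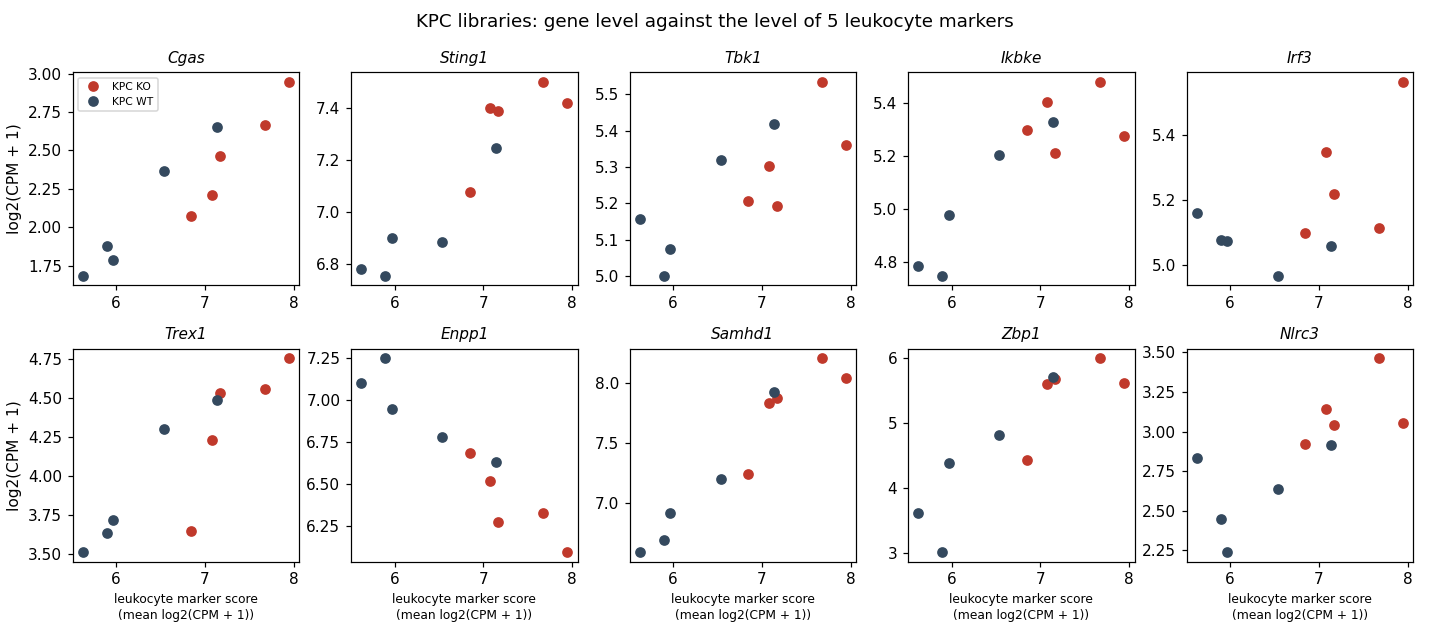
Level of each core gene, as log2(CPM + 1), against the leukocyte marker score in the 10 KPC libraries (red KO, dark WT). KO libraries lie to the right (scores 6.85 to 7.94, against 5.63 to 7.14 in WT). Libraries with a higher score have less Enpp1 (Pearson r −0.950) and more of the other core genes. Among these, Samhd1, Cgas and Sting1 follow the score most closely (r 0.958, 0.933 and 0.930) and Irf3 least (0.546).

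Whether the knockout effect differed between the lines was tested with an interaction contrast, the log2 fold change in ID8 minus that in KPC, over all 16 libraries. The ID8 libraries had leukocyte markers near 0, while the KPC libraries hold host transcripts. The contrast therefore cannot separate line from host content, here or for the genes below. For Sting1 in KPC the log2 fold change was 0.42, and 0.15 with the leukocyte score in the fit. The contrast used a joint estimate of replicate spread, 21.4%, while separate fits gave 5.08% (ID8) and 25.1% (KPC). The contrast passed for 2 of the 10 genes, Sting1 and Nlrc3, both as lower in ID8. Of all 14921 genes, 21.8% passed, 10.3% as higher and 11.6% as lower. For Sting1 the difference was −0.51 (SE 0.150, adjusted p = 0.0241). The call was lost without ID8 WT replicate 3, ID8 KO replicate 1 or ID8 KO replicate 2 (adjusted p up to 0.0628).

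Nlrc3 had a difference of −1.80 (SE 0.382, adjusted p = 0.00378). It fell in ID8 KO, while in KPC all KO libraries were above all WT libraries. Zbp1 differed by 1.97, with an SE of 0.910 that left it short of the threshold (adjusted p = 0.142), although the DESeq2 test passed it (adjusted p = 0.0238). Samhd1 differed by −0.66 (adjusted p = 0.226), and passed without KPC WT replicate 4 (adjusted p = 0.0148). Enpp1 differed by −0.03 (SE 0.191, adjusted p = 0.999), with a 95% interval from −0.44 to 0.37.

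Across line and genotype the core genes followed different orders. Zbp1 was highest in KPC KO (45.9 ± 15.5 CPM) and KPC WT (23.4 ± 17.5 CPM), which overlapped, then ID8 KO and ID8 WT, each below the group before it without overlap. For Nlrc3 no neighbouring groups overlapped in the order KPC KO, KPC WT, ID8 WT and ID8 KO. Cgas had the opposite order of lines, with ID8 KO above ID8 WT without overlap, and ID8 WT, KPC KO and KPC WT each overlapping the next. Samhd1 was higher in both KPC groups than in both ID8 groups without overlap, while for Tbk1 every neighbouring pair overlapped. The KPC libraries hold host transcripts and the ID8 libraries have the leukocyte markers near 0, so an order across lines is not one of cancer cells alone.

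Further genes of the pathway were read in 7 lists. The alternative fits and the fits with a library left out were read only for the core genes and Trp53bp1. Calls of the list genes were not checked in this way. Of the targets that IRF3 induces, 8 of 8 tested genes passed as higher in ID8 and 0 as lower, where 25.4% of all genes passed as higher, with a median log2 fold change of 1.97, against 0.01 over all genes. Ifit1, an antiviral RNA-binding protein, had 11.0, 11.2 and 10.01 CPM in ID8 KO, against 1.13, 1.13 and 1.79 CPM in ID8 WT (log2 fold change 2.99, SE 0.156, adjusted p = 1.72e-10). Rsad2, which encodes the antiviral enzyme viperin, rose by 3.08 (SE 0.261) and the chemokine gene Cxcl10 by 3.30 (SE 0.152). Rsad2 had 5 to 10 counts per WT library against 58 to 59 in KO, and so passed the count filter through the KO group, where it was high. The interferon genes Ifnb1 and Ifna4 were not analysed here.

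In KPC none of these 8 targets passed the test (1 at an unadjusted p under 0.05), all 8 had a positive log2 fold change, and their median was 0.42, against −0.01 over all genes. Ifit1 had 10.1, 5.19, 7.58, 9.97 and 10.6 CPM in KPC KO, against 3.24, 5.66, 11.5, 14.6 and 3.44 CPM in KPC WT. For Ifit1 the WT libraries thus spanned the whole KO range. Cxcl10 had 15.9 to 59.5 CPM in KPC KO and 2.83 to 57.9 CPM in KPC WT. Rsad2 had 2.87 to 6.98 CPM in KO and 3.38 to 7.63 CPM in WT. The difference between the lines passed as higher in ID8 for Rsad2 (3.02, adjusted p = 0.00139), Ifit1 (2.80, adjusted p = 0.00575) and Ifit3 (2.07, adjusted p = 0.0341).

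Partners of ZBP1 in cell death had 2 genes higher and 2 lower of 5 in ID8 (median −0.03; 25.4% and 25.5% of all genes) and 1 higher of 5 in KPC (median 0.40; 6.67% of all genes). Ripk3, the kinase through which ZBP1 triggers necroptosis, had 0.420, 0.421 and 0.422 CPM in ID8 KO, 8 counts in each library, against 10.5, 10.8 and 10.9 CPM in ID8 WT. It fell by 4.65 on the log2 scale (SE 0.169, adjusted p = 1.90e-12), and it passed the count filter through the WT group, where it was high. Casp8, a protease that restrains necroptosis, fell by 0.35, Fadd and Ripk1 rose by 0.22 and 0.14, and Mlkl, the executioner of necroptosis, did not pass (−0.03).

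In KPC, Ripk3 had 48.5, 39.6, 42.4, 48.1 and 41.6 CPM in KO, against 23.4, 23.5, 38.3, 43.1 and 25.8 CPM in WT, and did not pass (log2 fold change 0.50, adjusted p = 0.0724), while Casp8 passed as higher (0.40, adjusted p = 0.0243). The difference between the lines was −5.17 for Ripk3 (SE 0.326, adjusted p = 9.56e-08). In ID8 KO, therefore, Zbp1 was higher and Ripk3 was lower than in ID8 WT, and in KPC both had positive differences that did not pass.

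The NF-kB arm, which STING also activates, had 5 genes higher and 2 lower of 9 tested in ID8 (median 0.21; 25.4% and 25.5% of all genes) and 3 higher and 0 lower of 9 in KPC (median 0.29; 6.67% and 7.01% of all genes). Relb, a subunit of the non-canonical arm, had 47.5, 50.9 and 49.96 CPM in ID8 KO, against 26.9, 23.7 and 26.2 CPM in ID8 WT (log2 fold change 0.96, SE 0.0638). It also rose in KPC (0.52, adjusted p = 0.0152), where Nfkb2 rose too (0.48, adjusted p = 0.0129). Map3k14, which encodes the kinase NIK of that arm, fell by 0.68 in ID8 and rose by 0.56 in KPC (adjusted p = 0.00699), and the difference between the lines passed (−1.26, adjusted p = 3.87e-05).

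Regulators of STING trafficking and ubiquitination had 5 genes higher and 1 lower of 15 in ID8 (median 0.07), below the 50.8% called among all genes, and 0 of 15 past the test in KPC (1 at an unadjusted p under 0.05, median −0.05). Usp18, an ISG15-removing protease that is itself interferon-induced, had 3.83, 3.26 and 3.79 CPM in ID8 KO, against 0.269, 0.270 and 0.379 CPM in ID8 WT (log2 fold change 3.54, SE 0.250). These are 62 to 73 counts per KO library and 5 to 7 per WT library, so Usp18 passed the count filter through the KO group, where it was high. Npc1, a lysosomal cholesterol transporter that promotes STING turnover, rose by 0.48 in ID8, and Insig1, a membrane adaptor for STING ubiquitination, fell by 0.45.

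TBK1 scaffolds and sister adaptors had 3 genes higher and 1 lower of 9 in ID8 (median −0.02) and 1 higher of 9 in KPC (median 0.12), near the shares among all genes (50.8% and 13.7% called). Tbkbp1, which encodes a TBK1-binding scaffold, fell by 1.42 in ID8, and Tank, another scaffold, rose in both lines, by 0.27 in ID8 and 0.45 in KPC (adjusted p = 0.0109 and 0.0249). Cofactors of cGAS and carriers of cGAMP had 3 higher and 3 lower of 7 in ID8 (median −0.02) and 1 higher of 8 in KPC (median 0.07), beside 50.8% and 13.7% of all genes called. Slc19a1, an importer of cyclic dinucleotides, fell by 0.55 in ID8, and Abcc1, an exporter of cGAMP, by 0.49, while Smpdl3a, another cGAMP-degrading enzyme, rose by 0.70 in KPC (adjusted p = 0.0362).

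Of the genes that clear DNA and RNA-DNA hybrids, 1 was higher and 2 lower of 7 in ID8 (median −0.17), beside 50.8% of all genes called, and 0 of 8 passed in KPC (1 at an unadjusted p under 0.05, median 0.16). Adar, an RNA-editing enzyme that limits RNA sensing, rose by 0.57 in ID8. Rnaseh2a and Rnaseh2c, subunits of the enzyme that removes ribonucleotides from DNA, fell by 0.22 and 0.26.

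**Figure D4:**
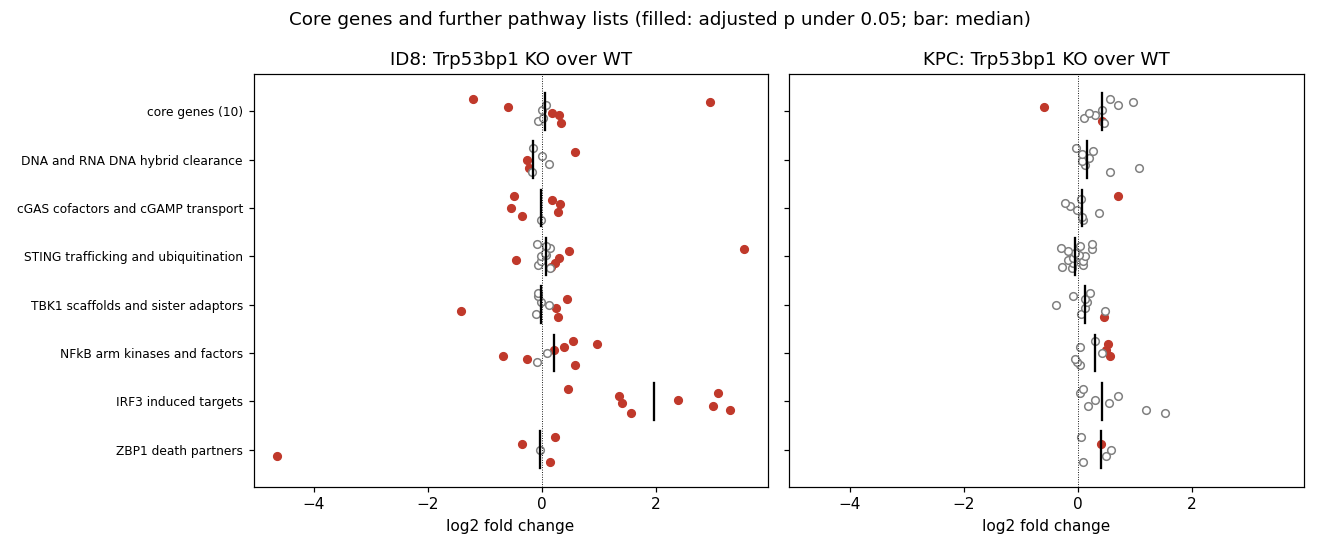
Log2 fold change of KO over WT for the core genes and the 7 further lists in ID8 (left) and KPC (right) on the same axis, with filled points for genes past an adjusted p of 0.05 and bars for the median of each list. The IRF3-induced targets lie to the right in ID8 (8 of 8 filled, median 1.97) and are all unfilled in KPC (median 0.42). The point far left in ID8 is Ripk3 (−4.65).

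For each core gene, the genes with the most similar level over the 10 KPC libraries were found by Pearson correlation of log2(CPM + 1) among 11603 genes. Genotype and host content vary among these libraries, which were scaled together, and the values are a description. Zbp1 was most like the chemokine genes Cxcl10 (r = 0.989) and Cxcl9 (0.988) and the DNA-binding protein gene Mndal (0.988). Sting1 was most like Socs1 (0.986), a cytokine signalling inhibitor, Icam1 (0.985), an adhesion molecule, and Tapbp (0.980) of antigen loading. Cgas was most like the myeloid genes Ms4a6c and Lst1 and Slfn1 (0.984 each), and Samhd1 like Ly6c2 (0.987), Ppm1h (0.987) and Pirb (0.984).

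Trex1 was most like Phf11d (0.978), Gvin3 (0.978) and the RNA sensor gene Dhx58 (0.976), and Ikbke like Zbtb46 (0.979), a dendritic cell factor, Naip2 (0.978) and Dnase1l3 (0.977). Enpp1 was most like Zmym4 (0.984), Chic1 (0.982) and Pcyox1 (0.981), and Irf3 like Antkmt, Sec11a (0.963 each) and Txndc15 (0.962). Tbk1 was most like Jak3 (0.970), Slco2a1 (0.969) and Frmd4b (0.956), and Nlrc3 like Mfsd12 (0.963), Dennd4a and L3mbtl2 (0.943 each).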

How the data were processed

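RNA of 16 samples labelled as tumours was sequenced, and the labels gave each sample its group and replicate number. Per the submitters' processing notes, the tools were HISAT and RSEM 1.2.8 with GRCm39 (mm39) as genome. The authors deposited unnormalized expected counts, which were fractional for 7.92% to 8.96% of the values in a table. Strand use in counting was not stated. A gene absent from a line's table was taken as 0, expected counts were rounded, and CPM used TMM-scaled library sizes over all 16 libraries. Total counts were 17902867 to 19727536, and 3 counts correspond to 0.152 to 0.168 CPM. No replicates looked like duplicates (counts differed with a chi-square of at least 4.36 a gene).

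Tests were robust quasi-likelihood F tests with TMM and filterByExpr in edgeR 4.0.16 (R 4.3.3), Benjamini-Hochberg adjusted over all genes at 0.05, each line fitted alone and the difference between lines as an interaction. SEs are approximations, |log2 fold change| over the root of F. Procedures were tested on simulated data. Permutation tests used scipy 1.17.1. Alternatives were median-of-ratios size factors, DESeq2 1.42.0, limma-voom (limma 3.58.1), no filter, a mean of at least 1 CPM, genes listed in both tables, a joint fit, a replicate block, muscle and leukocyte score covariates, and leaving out each library. Genes named are the 10 core genes, Trp53bp1, up to 3 called genes per list and line with the largest change, and per core gene the 3 most correlated genes with a mean of at least 5 CPM, leaving out predicted genes. Ifit3, Ripk1 and Mlkl, and values of named genes in the other line, were added after their values were seen. The genes and lists were chosen with earlier results of these data known. Promoter windows, overlaps and transcript lengths come from GRCm38 annotation.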

Additional observations from a re-analysis of the deposited data

Results flagged for a closer look

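Of 22 groups of 5 KPC libraries examined for a single library far from the others, chance alone marks about 1 in 20. Sting1 at 151.0 CPM in KPC WT replicate 4 stood apart from the other 4 WT libraries, which lay between 107.1 and 118.6 CPM (gap over range 0.738, limit 0.710 for 5 samples). The knockout effect differed between lines, by the interaction test, for Sting1 (ID8 minus KPC −0.51), for Nlrc3 (−1.80) and for the targeted gene Trp53bp1 (−0.76, SE 0.121). That test cannot separate line from host content, since leukocyte markers were near 0 in ID8 only.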

How the results depend on the processing

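Depth limits Nlrc3 and Zbp1 in ID8, with 8 to 12 counts per library in the lower group, and the spread between KPC libraries limits most KPC results. The cause of each change below was not tested. In ID8, the joint fit of the 4 groups called 2681 genes (6067 with the line alone) and 3 of the core genes (6), losing Cgas, Ikbke and Irf3. In KPC, DESeq2 called 3162 genes, the joint fit 3524, the muscle covariate 418 and the leukocyte covariate 376 (main 1953). Core genes called in KPC were 4 with DESeq2, the joint fit or the replicate block, and 0 with either covariate (main 2). The share of KPC calls that were higher was 37.3% with the muscle and 59.6% with the leukocyte covariate (main 48.7%). With the leukocyte covariate Trp53bp1 had −0.40 in KPC (adjusted p = 0.0931), and the uncalled KPC changes became negative for Cgas (−0.46), Tbk1 (−0.13), Trex1 (−0.39), Samhd1 (−0.081) and Zbp1 (−0.24). With no filter Trex1 in ID8 was 0.0031.

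With each library left out, KPC calls ranged from 934 genes (without WT replicate 1) to 3106 (without WT replicate 4) and from 0 to 6 core genes; the 6, without WT replicate 4, were Enpp1, Ikbke, Nlrc3, Samhd1, Sting1 and Zbp1. Core genes called for the difference between lines were 1 to 3. Uncalled values changed sign in ID8 for Tbk1 (−0.014 to 0.063) and Trex1 (−0.047 to 0.078), and for the difference between lines in Cgas (−0.38 to 0.020), Enpp1 (−0.11 to 0.053), Ikbke (−0.11 to 0.040) and Irf3 (−0.090 to 0.057). No called value of the core genes or Trp53bp1 changed sign under any alternative run. Nlrc3 was not tested in ID8 at a mean of at least 1 CPM.

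No pairing of samples by replicate number was evident, though so few libraries cannot show that they were unpaired. Same-numbered deviations correlated at −0.138 to 0.187 in ID8 and −0.535 to 0.546 in KPC, and 2 of 6 and 2 of 10 samples correlated best with their own number. With a replicate block 5852 genes were called in ID8, 1665 in KPC and 2755 for the difference between lines. The block called Ikbke, Nlrc3, Samhd1 and Sting1 in KPC.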
